A study of Homo sapiens with 16 samples.

Results

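The effect of MK25, an inhibitor of the kinase MK2 (MAPKAPK2), was compared between ischemic and regular culture of LN229 cells, a cell line from a human glioblastoma (GBM). For each gene, the change from DMSO to MK25 in regular culture was subtracted from the change from DMSO to MK25 in ischemic culture, and this difference of 2 differences is called the interaction here. All 14024 genes of the second experiment were tested, and 3424 of them (24.4%) had an interaction at an adjusted p under 0.05. A positive interaction means that MK25 moved the gene upward in ischemic culture relative to regular culture, and a negative one that it moved the gene downward there. Values are log2 normalized CPM, read counts scaled to a common library size, and differences on this log2 scale are given with their standard error (SE).

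The 8 libraries of the comparison form 4 groups of 2, namely LN229 in regular culture with DMSO (the solvent control), in regular culture with MK25, in ischemic culture with DMSO and in ischemic culture with MK25. Regular culture is complete serum-containing medium at ambient oxygen, and ischemic culture combines low nutrients with low oxygen. All libraries come from unmodified cells of 1 line, and the labels give neither the dose nor the exposure time of MK25. A further 4 libraries with VX745, an inhibitor of p38α, the kinase that activates MK2, entered the fit as groups of their own, and 4 untreated libraries form a separate first experiment. It is not stated whether the 2 libraries of a group came from separate cultures, so p-values measure the spread between these libraries, which may be technical.

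As background, p38α is switched on by stress and inflammatory signals and phosphorylates MK2, which in turn acts on RNA-binding proteins that control the lifetime of cytokine messages. Low oxygen stabilizes the HIF transcription factors, which raise genes of glucose uptake, glycolysis and mitophagy. A shortage of amino acids or stress in the endoplasmic reticulum raises translation of ATF4, which induces amino acid synthesis, tRNA charging and the factor CHOP (*DDIT3*). Low sterol in the endoplasmic reticulum releases SREBP2, which raises cholesterol synthesis. These programs are known to respond to an ischemic environment in tumor tissue.

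The start regions of 4 genes are printed, because each belongs to a gene group described in what follows. Each is a window of 250 bases before to 50 bases after the annotated start, from the RefSeq promoter table of GRCh38.p14, in the direction of transcription. The first are *CA9* (carbonic anhydrase 9; chr9:35673678-35673977, plus strand) and *BNIP3* (a mitophagy receptor; chr10:131981874-131982173, minus strand), which represent the hypoxia genes. Capitals mark the core of the hypoxia response element, ACGTG, on either strand.
CA9: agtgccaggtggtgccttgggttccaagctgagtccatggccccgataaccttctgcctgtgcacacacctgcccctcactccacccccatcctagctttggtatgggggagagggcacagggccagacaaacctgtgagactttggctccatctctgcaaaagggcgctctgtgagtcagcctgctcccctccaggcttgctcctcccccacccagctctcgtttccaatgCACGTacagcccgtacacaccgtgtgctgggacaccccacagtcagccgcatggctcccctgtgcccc
BNIP3: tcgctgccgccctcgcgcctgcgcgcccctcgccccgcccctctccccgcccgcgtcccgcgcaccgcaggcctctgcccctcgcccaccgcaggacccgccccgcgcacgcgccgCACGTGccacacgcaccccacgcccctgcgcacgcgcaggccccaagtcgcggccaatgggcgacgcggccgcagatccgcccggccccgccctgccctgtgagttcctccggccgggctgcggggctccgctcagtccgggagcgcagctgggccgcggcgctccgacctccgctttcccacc
*ASNS* (asparagine synthetase; chr7:97872359-97872658, minus strand) represents the ATF4 targets, with the ATF4 and C/EBP composite motif TGATGNAA in capitals. *EGR1* (an immediate early transcription factor; chr5:138465229-138465528, plus strand) belongs to the immediate early genes, with 2 CArG boxes, the motif of serum response factor, in capitals.
ASNS: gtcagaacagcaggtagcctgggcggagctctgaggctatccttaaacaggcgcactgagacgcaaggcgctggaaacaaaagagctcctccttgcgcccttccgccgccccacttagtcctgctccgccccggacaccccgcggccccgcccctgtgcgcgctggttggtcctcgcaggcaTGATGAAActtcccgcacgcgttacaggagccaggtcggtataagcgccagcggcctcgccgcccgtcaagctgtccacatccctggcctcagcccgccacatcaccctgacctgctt
EGR1: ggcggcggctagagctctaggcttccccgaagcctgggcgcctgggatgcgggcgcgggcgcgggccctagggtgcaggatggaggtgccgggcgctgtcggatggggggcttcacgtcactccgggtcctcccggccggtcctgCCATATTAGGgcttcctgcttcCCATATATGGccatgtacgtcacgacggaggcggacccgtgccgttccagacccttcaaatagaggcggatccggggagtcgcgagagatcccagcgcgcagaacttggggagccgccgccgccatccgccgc
The *CA9* match starts 18 bases before the start, the 2 overlapping *BNIP3* matches 134 and 133 bases before it, the *ASNS* match 68 bases before it, and the *EGR1* boxes 105 and 83 bases before it. ACGTG on either strand occurred in 21.4% of all 35116 windows, in 32.2% of 11087 tested genes with a window and in 19 of 30 hypoxia and glycolysis genes with one (63.3%). TGATGNAA occurred in 3.62% of all windows and in 6 of 26 ATF4 and CHOP targets (23.1%), and a CArG box in 1.29% of all windows. The share of immediate early genes with a CArG box was not counted. A match is only a description of letters. A second *ASNS* window and that of *CTH* held no match of TGATGNAA. The windows of *CXCL8* and *PTGS2* held none of the NFkB string GGGRNWYYCC. Those of *HMGCS1* and *INSIG1* held none of the sterol regulatory element string TCACNCCAC. Only exact matches were counted, so a window without one can still hold a near match, as *CXCL8* does with tggaatttcc.

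Between 20122017 and 37562668 reads per library lay on the listed genes. The regular MK25 libraries were the shallowest of the 8 and the ischemic MK25 libraries the deepest, so depth moved with the groups compared, and its part in the results was not tested. Replicates of a group differed by more than sampling noise, with a chi-square of 4.47 to 8.20 per gene, and each was counted as 1 library, which does not tell separate cultures from separate preparations of one culture. Of 15 glial and mesenchymal glioma markers, 14 were measured, led by *VIM* with a mean log2 value of 11.76, and their summed level was 7086 to 7446 CPM in regular culture, 12130 to 12178 CPM in ischemic DMSO and 9827 to 9925 CPM in ischemic MK25 libraries. Of 10 leukocyte markers 3 were measured, with a summed level of 31.3 to 63.2 CPM, and of 8 epithelial markers 4 were measured, with 143 to 236 CPM, mostly *KRT18*. Of 7 endothelial markers, 0 were in the table.

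More genes were called for MK25 in ischemic than in regular culture. In ischemic culture 2770 genes rose (19.8%) and 3080 fell (22.0%), whereas in regular culture 981 rose (7.00%) and 731 fell (5.21%). The regular counts rested in part on single libraries, with 520 rises and 303 falls without regular DMSO replicate 2, and 598 and 462 without regular MK25 replicate 1. The interaction was positive for 1468 genes (10.5%) and negative for 1956 (13.9%), with a median size of 0.46 among called genes, and 318 of them differed by at least 2-fold. Across 10029 genes whose mean log2 value reached 3, the effects of MK25 in the 2 cultures, which share no library, had a Pearson correlation of 0.29, given as a description across genes that are not independent.

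The called genes fell into classes by their 2 separate effects. Opposite effects, called in both cultures with different signs, were found for 240 genes, of which 167 fell in ischemic and rose in regular culture and 73 did the reverse. In 2434 genes the effect was called in ischemic culture alone, with 1068 rises and 1366 falls, and in 354 genes in regular culture alone, with 212 rises and 142 falls. A further 170 genes moved the same way in both cultures by different amounts, and 226 passed the test in neither culture taken singly. An effect that was not called is not an absent effect. One-sided genes were chosen for having no call in the other culture, which favors small effects there, so their size there is not independent evidence. In the ischemic-only genes the median size was 0.41 in ischemic and 0.09 in regular culture. Of their 2434 regular effects, 2274 lay within 0.25 of 0, and 1557 had the sign opposite to the ischemic effect. In the regular-only genes 331 of 354 ischemic effects lay within 0.25 of 0, and 268 had the sign opposite to the regular effect. The confidence interval of the uncalled effect had a median width of 0.31 in ischemic-only and 0.33 in regular-only genes.

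**Figure D1:**
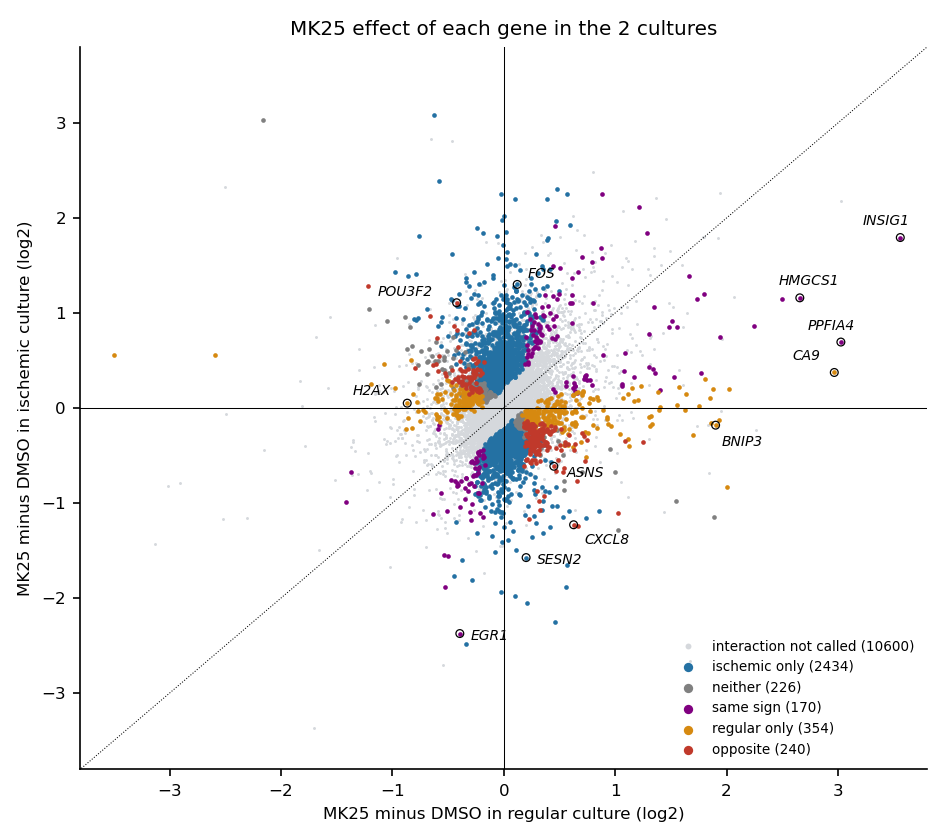
Each point is a gene, with the MK25 effect in regular culture (log2 difference from DMSO) on the horizontal axis and that in ischemic culture on the vertical axis, colored by class, and with the dotted line marking equal effects. More genes are ischemic only (2434) than regular only (354), opposite genes lie mainly in the lower right (167 against 73 in the upper left), *CA9* and *BNIP3* lie far right near the horizontal line, and 5 genes beyond 3.8 on either axis are not drawn.

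The count of opposite genes depended on single libraries more than the other counts. It was 91 without regular DMSO replicate 2, 117 without regular MK25 replicate 1, 153 without ischemic DMSO replicate 1 and 384 without regular DMSO replicate 1. The regular-only count was likewise 164 without regular DMSO replicate 2, against 354 with all libraries. All 240 opposite genes kept both directions when any of the 8 libraries was left out, and 230 kept them under quantile normalization. They were chosen by their effects in these same libraries, so kept directions are not independent evidence. Of the 240, 157 were still opposite under quantile normalization and 94 without a variance trend.

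Genes of hypoxia and glycolysis held the most regular-only genes of the 26 lists. Over all genes, 13.9% had a negative interaction and 7.00% rose with MK25 in regular culture, while 19.8% rose and 22.0% fell in ischemic culture. Of the 35 measured hypoxia and glycolysis genes, 30 had a negative interaction and none a positive one. With MK25, 30 of the 35 rose in regular culture, whereas in ischemic culture 9 rose and 7 fell. The median effect was 0.56 in regular and -0.09 in ischemic culture, the latter turning to 0.13 under quantile normalization, and the median interaction was -0.74 (-0.47 under quantile normalization), against 0.0018 for all genes. Under quantile normalization, and with trends on transcript GC and length removed, 1 member had a positive interaction. By class, 18 were regular only, 6 opposite, 5 of the same sign and 1 ischemic only. In untreated cells of the first experiment, 33 of the 35 were higher in ischemic than in regular culture, against 35.2% of all genes measured in both experiments. Here and below, the gene lists were written with earlier results of these data known, so their counts describe them and are not independent evidence.

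*CA9*, which hydrates carbon dioxide at the cell surface and is a standard marker of hypoxia, was at -1.77 and 0.27 in regular DMSO, 2.14 and 2.30 in regular MK25, 6.87 and 6.97 in ischemic DMSO, and 7.32 and 7.27 in ischemic MK25. It was thus lowest in regular DMSO, intermediate in regular MK25 and high in all 4 ischemic libraries. The regular DMSO replicates lay far apart, and only replicate 1 was near the floor of detection (-2.59 there, and -2.38 in replicate 2). The effect was 2.97 (SE 0.38) in regular and 0.37 (95% interval -0.42 to 1.17) in ischemic culture, with an interaction of -2.59 (SE 0.54, adjusted p = 0.00212) that ranged from -3.61 to -1.57 over the alternatives. *BNIP3* stood at 5.24 and 5.04 in regular DMSO, 7.09 and 6.99 in regular MK25, 9.38 and 9.39 in ischemic DMSO, and 9.20 and 9.21 in ischemic MK25. Its interaction was -2.08 (SE 0.10, adjusted p = 1.07e-09), with an effect of 1.90 in regular culture. *SLC2A3*, a glucose transporter, was at 3.08 and 2.87 in regular DMSO and at 4.91 in both regular MK25 libraries, with an interaction of -2.06 (SE 0.10). In ischemic culture it was at 8.26 and 8.27 with DMSO and at 8.12 and 8.17 with MK25, groups that do not overlap but whose difference of -0.12 did not pass the test (adjusted p = 0.172).

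*PDK1*, a kinase that inhibits pyruvate dehydrogenase, had its groups in the same order as *BNIP3* and *SLC2A3*. It was at 3.62 and 3.34 in regular DMSO, 5.33 and 5.34 in regular MK25, 7.77 and 7.74 in ischemic DMSO, and 7.51 and 7.68 in ischemic MK25, with an interaction of -2.01 (SE 0.12, adjusted p = 7.08e-09). *AK4*, a mitochondrial adenylate kinase outside the list, rose by 1.76 (SE 0.08) in regular culture, with an effect of 0.02 (95% interval -0.14 to 0.18) in ischemic culture. Further members with negative interactions were *ANKRD37* (-1.82), the mitophagy receptor *BNIP3L* (-1.65), hexokinase *HK2* (-1.50), *NDRG1* (-1.41), the angiogenic factor *VEGFA* (-1.04) and the glycolytic enzymes *LDHA* (-0.82) and *PGK1* (-0.81). *PPFIA4*, a scaffold protein of the liprin family and also no member, rose by 3.03 in regular and by 0.69 in ischemic culture, with an interaction of -2.33 (SE 0.12, adjusted p = 1.11e-09). The 5 members without a called interaction were *LOX*, *HILPDA*, *PFKFB3*, *CA12* and *EGLN3*, with interactions of 0.01 to 0.62. Regular MK25 levels of the 4 genes given in full stayed below those of ischemic DMSO by more than 2 on the log2 scale in every library.

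**Figure D2:**
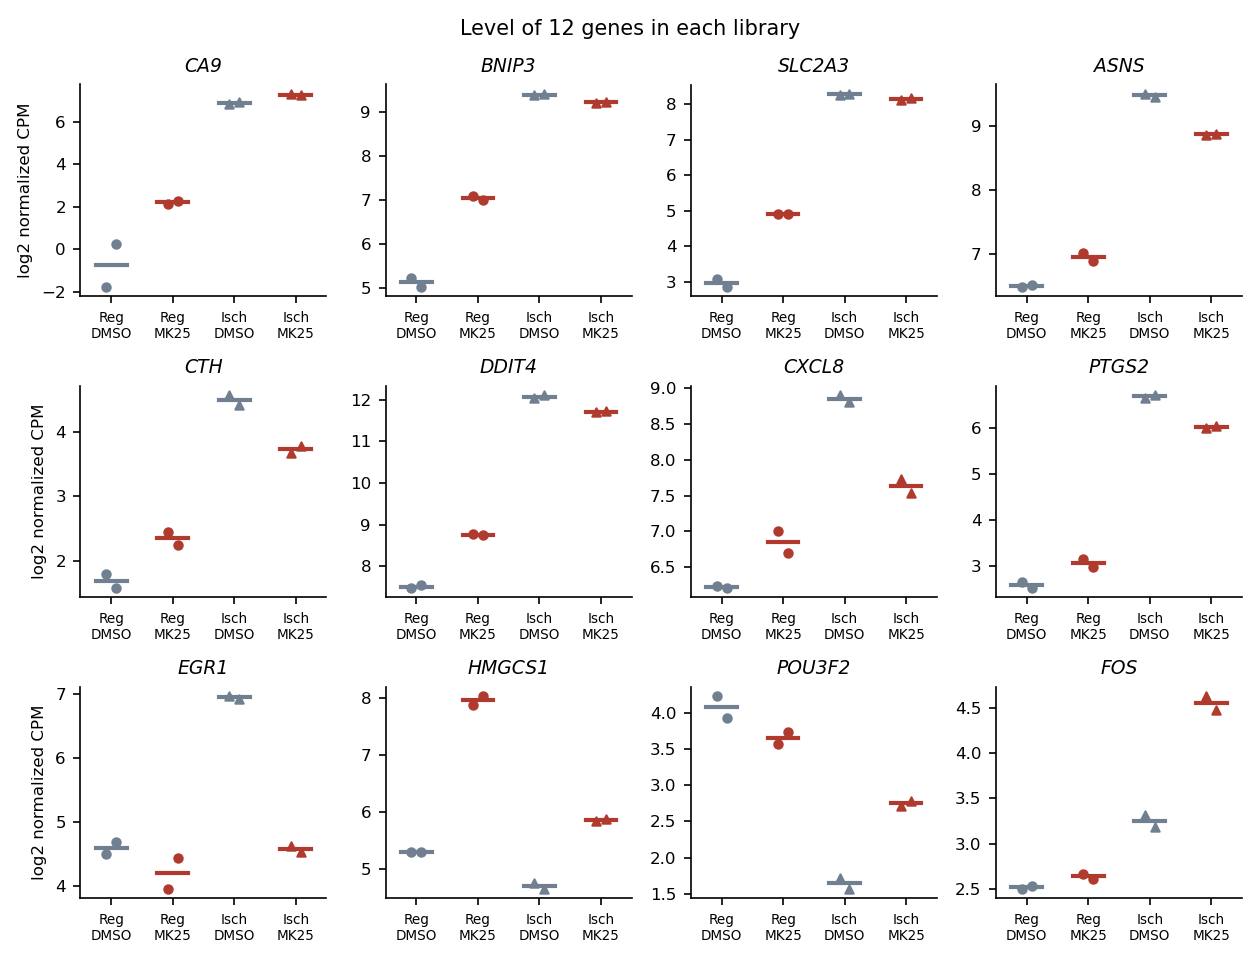
Each panel shows a gene, with deposited log2 normalized CPM on a vertical axis of its own range and the 4 groups on the horizontal axis; points are single libraries (circles regular, triangles ischemic culture) and bars the mean of 2. *CA9*, *BNIP3* and *SLC2A3* differ between DMSO and MK25 mainly in regular culture, *ASNS*, *CTH*, *CXCL8* and *PTGS2* in opposite directions, and *EGR1* and *FOS* mainly in ischemic culture.

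ATF4 and CHOP targets held the most opposite genes of the 26 lists. Of 32 measured genes, 28 had a negative interaction and none a positive one (87.5% called, against 24.4% of all genes). Of the 28, 18 were in the opposite class. With MK25, 24 of the 32 fell in ischemic and 22 rose in regular culture, with median effects of -0.38 and 0.40 and a median interaction of -0.81. Under quantile normalization the ischemic median was -0.21, and 1 member had a positive interaction. In untreated cells, 30 of the 32 were higher in ischemic culture, against 35.2% of all genes measured in both experiments. The factors themselves followed the same pattern, with interactions of -0.89 (SE 0.09) for *ATF4*, -0.95 (SE 0.11) for *DDIT3* and -0.89 (SE 0.08) for *TRIB3*, a pseudokinase induced by CHOP.

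*ASNS* was at 6.48 and 6.51 in regular DMSO, 7.01 and 6.89 in regular MK25, 9.51 and 9.47 in ischemic DMSO, and 8.86 and 8.88 in ischemic MK25. Neither culture had overlapping groups, and the effects were 0.45 (SE 0.05) in regular and -0.61 (SE 0.05) in ischemic culture, an interaction of -1.06 (SE 0.08, adjusted p = 5.96e-08). *CTH*, which makes cysteine from cystathionine, was at 1.80 and 1.58 in regular DMSO, 2.45 and 2.25 in regular MK25, 4.58 and 4.43 in ischemic DMSO, and 3.67 and 3.79 in ischemic MK25, with an interaction of -1.43 (SE 0.17, adjusted p = 1.93e-05). *PCK2*, the mitochondrial enzyme that forms phosphoenolpyruvate, rose by 0.48 in regular and fell by 0.55 in ischemic culture, both with SE 0.07. *DDIT4*, an inhibitor of mTORC1 signaling, rose by 1.25 in regular and fell by 0.36 in ischemic culture, with an interaction of -1.60 (SE 0.08, adjusted p = 1.02e-09).

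Not all members followed this order. *SESN2*, a sestrin that senses leucine, was ischemic only, at 7.05 and 7.20 in ischemic DMSO and 5.63 and 5.48 in ischemic MK25, a change of -1.57 (SE 0.08) against 0.20 (95% interval 0.04 to 0.36, adjusted p = 0.0979) in regular culture. *VLDLR*, a lipoprotein receptor, was regular only, with effects of 1.31 in regular and -0.09 in ischemic culture. *CHAC1*, which degrades glutathione, had opposite effects but was lower in ischemic DMSO (2.63 and 2.39) than in regular DMSO (3.25 and 3.54). *SLC7A11*, the cystine carrier, fell in both cultures, by 0.84 in ischemic and by 0.35 in regular culture.

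Genes of protein synthesis and folding showed negative interactions of smaller size. The called shares were 70% of aminoacyl-tRNA synthetases, 59.1% of endoplasmic reticulum chaperones and 89.7% of cytosolic ribosomal protein genes, against 24.4% of all genes. Of 20 aminoacyl-tRNA synthetases, 14 had a negative interaction and none a positive one (median -0.42, or -0.26 under quantile normalization), with 14 falls in ischemic and 6 rises in regular culture. *GARS1*, which charges glycine tRNA, fell by 0.58 (SE 0.06) in ischemic and rose by 0.25 (SE 0.06) in regular culture. Of 22 endoplasmic reticulum chaperones and related genes, 13 had a negative interaction (6 under quantile normalization) and none a positive one. They were led by *XBP1*, a transcription factor of the unfolded protein response, with an interaction of -1.40 (SE 0.09, adjusted p = 1.07e-08), and included the chaperone *HSPA5* with -0.77 (SE 0.08). *XBP1* was at 6.05 and 5.94 in regular DMSO, 6.25 and 6.20 in regular MK25, 8.38 and 8.47 in ischemic DMSO, and 7.29 and 7.22 in ischemic MK25. Of 29 cytosolic ribosomal protein genes, 26 had a negative interaction (median -0.54), with 28 falls in ischemic and 5 rises in regular culture, but under quantile normalization 13 negative interactions were called, with a median of -0.28. *RPL10* fell by 0.40 and rose by 0.26 (each SE 0.07), and values of ribosomal protein genes are uncertain because processed copies elsewhere in the genome share their sequence.

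Heat shock and respiratory chain genes followed with smaller counts. The called shares were 44.4% and 51.7%, against 24.4% of all genes. Under quantile normalization, 1477 of all 14024 genes had a negative interaction. Of 18 cytosolic heat shock genes, 8 had a negative interaction (4 under quantile normalization) and none a positive one, with 12 falls in ischemic culture and 1 in regular culture. *DNAJB1*, a co-chaperone of HSP70, had an interaction of -0.97 (SE 0.17, adjusted p = 0.000655). Of 29 nuclear-encoded genes of oxidative phosphorylation, 15 had a negative interaction (8 under quantile normalization), and the median effects were -0.18 in ischemic (-0.11 under quantile normalization) and 0.10 in regular culture (0.065 with GC and length trends removed).

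Sterol synthesis differed between the cultures in amount, not in direction. Of 23 genes, 20 rose with MK25 in ischemic and 22 in regular culture, and none fell in either. The interaction was negative for 17 and positive for 1 (78.3% called, against 24.4% of all genes), and 16 of the 18 were of the same sign. Median effects over the list were 1.35 in regular and 0.91 in ischemic culture. *INSIG1*, which retains SREBP in the endoplasmic reticulum, was at 3.93 and 3.68 in regular DMSO, 7.35 and 7.38 in regular MK25, 6.45 in both ischemic DMSO libraries, and 8.21 and 8.28 in ischemic MK25. It rose by 3.56 (SE 0.07) in regular and by 1.79 (SE 0.07) in ischemic culture, an interaction of -1.77 (SE 0.11, adjusted p = 9.05e-09). *HMGCS1*, an early enzyme of the pathway, stood at 5.29 and 5.30 in regular DMSO, 7.88 and 8.03 in regular MK25, 4.74 and 4.65 in ischemic DMSO, and 5.84 and 5.87 in ischemic MK25, with an interaction of -1.50 (SE 0.10, adjusted p = 1.23e-08). Both genes rose in both cultures, and more in regular culture. Of 13 genes of fatty acid synthesis, 2 had a positive and 2 a negative interaction (30.8% called, against 24.4% of all genes), and *FASN*, fatty acid synthase, rose by 0.93 in ischemic and by 0.44 in regular culture.

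Inflammatory genes moved in more than one way. Of 18 measured cytokines and related genes, 6 had a negative and 2 a positive interaction (44.4% called, against 24.4% of all genes). Their median effects were -0.46 in ischemic and 0.23 in regular culture (0.13 with GC and length trends removed). *CXCL8*, the neutrophil chemokine interleukin-8, was at 6.23 and 6.21 in regular DMSO, 7.00 and 6.69 in regular MK25, 8.91 and 8.81 in ischemic DMSO, and 7.73 and 7.53 in ischemic MK25. It rose by 0.63 (SE 0.08) in regular and fell by 1.23 (SE 0.08) in ischemic culture, an interaction of -1.86 (SE 0.12, adjusted p = 1.07e-08). *PTGS2*, which makes prostaglandin precursors, was at 2.67 and 2.54 in regular DMSO, 3.16 and 2.99 in regular MK25, 6.65 and 6.71 in ischemic DMSO, and on average 6.02 (SD 0.026) in ischemic MK25, with an interaction of -1.13 (SE 0.12, adjusted p = 4.49e-06). Both were thus opposite, without overlap of groups in either culture. *CSF2* (interaction -1.25) and *LIF* (-0.62) fell in ischemic culture alone, *IL11* and *IL1B* fell in both cultures, and *CCL2* (0.95) and *CSF1* (0.84) rose in ischemic culture alone. *CSF2* was low, with a mean log2 value of 0.90 against 8.31 for *LIF*, and its interaction lost its call under 1 alternative. *IL6* had an interaction of -0.30 (SE 0.45, adjusted p = 0.667), and *IL1A* one of -0.34 (SE 0.18, adjusted p = 0.18) with falls in both cultures.

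Among 18 NFkB subunits and feedback targets, 3 interactions were positive and 3 negative (33.3% called, against 24.4% of all genes). *NFKB1* had small opposite effects of -0.15 in ischemic and 0.21 in regular culture, while *NFKBIA* and *TNFAIP3*, inhibitors of the pathway, rose in both cultures and more in ischemic culture (0.57 against 0.22, and 0.90 against 0.62). Of 20 AU-rich element binding and decay factors, the class through which MK2 is known to act on messages, 1 interaction was positive and 2 were negative, or 15.0% against 24.4% of all genes. These counts became 2 and 0 under quantile normalization, and 1 and 4 with GC and length trends removed. The positive one, *ZFP36L2*, was opposite, with 0.31 in ischemic and -0.44 in regular culture (interaction 0.75, SE 0.10). *ZFP36L1* and *HNRNPD* fell in ischemic culture, by 0.52 and 0.38.

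Most called immediate early genes were ischemic only, as were 2434 of all 3424 called genes. Of 24 immediate early genes, 12 had a negative and 2 a positive interaction (58.3% called, against 24.4% of all genes). Of these 14, 12 were ischemic only, 1 was opposite and 1, *EGR1*, was of the same sign. *EGR1* was at 4.50 and 4.68 in regular DMSO, 3.96 and 4.44 in regular MK25, 6.97 and 6.93 in ischemic DMSO, and 4.62 and 4.53 in ischemic MK25. It fell by 2.37 (SE 0.11) in ischemic and by 0.39 (SE 0.11) in regular culture, an interaction of -1.98 (SE 0.16, adjusted p = 2.28e-07). The ischemic MK25 level lay within the range of the regular DMSO libraries. In untreated cells of the first experiment, *EGR1* differed by only 0.06 between the cultures (adjusted p = 0.93). The difference between the 2 DMSO groups was thus not seen there. *MYC* (-1.26), *ATF3* (-0.93), *NR4A2* (-0.85) and *NR4A1* (-0.83) had negative interactions with falls in ischemic culture only. *FOS*, the partner of JUN in AP-1, moved the other way, at 2.50 and 2.53 in regular DMSO, 2.67 and 2.61 in regular MK25, 3.32 and 3.18 in ischemic DMSO, and 4.63 and 4.47 in ischemic MK25, with an interaction of 1.18 (SE 0.16, adjusted p = 8.5e-05). Of 15 dual-specificity phosphatases and Sprouty genes, 5 had a negative interaction (33.3% called), 4 of them ischemic only, and none a positive one. *DUSP5*, an ERK phosphatase, was at 7.27 in both ischemic DMSO libraries and at 5.99 and 5.97 in ischemic MK25, a change of -1.29 (SE 0.07) against 0.08 (95% interval -0.05 to 0.22) in regular culture. *DUSP10*, which acts on p38 and JNK, was opposite, with -0.98 in ischemic and 0.32 in regular culture.

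*FST* and *ERRFI1* were among the largest ischemic-only falls outside these groups. *FST*, the activin antagonist follistatin, was at 4.79 and 4.76 in ischemic DMSO and at 3.29 and 3.22 in ischemic MK25, with an interaction of -1.44 (SE 0.16). *ERRFI1*, an inhibitor of EGFR signaling, was at 8.98 and 8.94 and at 7.57 and 7.56, with a regular effect of 0.04 (95% interval -0.07 to 0.15). Among ischemic-only rises, *SRGAP3*, a GTPase-activating protein, was at 2.40 and 2.45 in ischemic DMSO and 3.92 and 3.94 in ischemic MK25 (interaction 1.40, SE 0.15), *MAP1A*, a microtubule-associated protein, rose by 1.45 (interaction 1.31), and *NEURL1B*, a ubiquitin ligase, rose by 1.25 (interaction 1.14).

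The largest negative interaction of all named genes was that of *RN7SK*, the 7SK small nuclear RNA, at -2.83 (SE 0.88, adjusted p = 0.0253). Its replicates lay far apart, at 3.19 and 5.97 in regular MK25 and at 2.32 and 4.07 in ischemic MK25, and its message carries no poly(A) tail, so its value is uncertain. Among genes whose mean log2 value reached 3, the largest positive interaction was that of *POU3F2*, a neural transcription factor, at 4.24 and 3.93 in regular DMSO, 3.58 and 3.75 in regular MK25, 1.72 and 1.57 in ischemic DMSO, and 2.71 and 2.79 in ischemic MK25. It rose by 1.11 (SE 0.12) in ischemic and fell by 0.42 (SE 0.12) in regular culture, an interaction of 1.53 (SE 0.17, adjusted p = 1.04e-05). *AHDC1* (interaction 1.24), *FAM222A* (1.22), *ZNF865* (1.08) and *MYPOP* (1.07) were likewise opposite. *EEPD1* rose in both cultures (1.92 and 0.46), and *PRAG1* (1.46) and *CEBPD* (1.26) were ischemic only, the last with ischemic DMSO libraries at 2.65 and 3.42 and an adjusted p of 0.00702. In regular culture alone, *H2AX*, the histone variant of DNA damage sites, fell by 0.87 (SE 0.12) and *ZNF503* by 0.81 (SE 0.15), and so did *TRAPPC12* by 0.87 and *PPAN* by 0.78, the last of which overlaps a readthrough gene and is uncertain.

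Of 30 mitotic genes, 8 had a positive and none a negative interaction (26.7% called, against 24.4% of all genes). The positive count was 14 under quantile normalization and likewise 14 with GC and length trends removed. They were led by *ASPM* (0.54) and *KIF20A* (0.47). Of 30 DNA replication genes, 9 had a negative and none a positive one (30% called), or 5 negative and 1 positive under quantile normalization. Of 22 TGF-beta pathway genes and targets, 7 were positive and 5 negative (54.5% called). The positive ones included the BMP ligand *BMP4* (1.03), the BMP targets *ID1* (0.96), *ID2* (0.82) and *ID3* (0.59) and the inhibitory *SMAD6* (1.02), and the negative ones the activin subunit *INHBA* (-0.88) and the ligand *TGFB2* (-0.72). Of 22 genes of the p38 and MK2 cascade, 5 had a positive and none a negative interaction (22.7% called), with a median of 0.0013. With GC and length trends removed there were 6 positive and 4 negative ones, and the median was -0.051. *MAP2K6*, a kinase upstream of p38, was at 3.67 and 3.57 in regular DMSO, 4.21 and 4.44 in regular MK25, 2.02 and 2.21 in ischemic DMSO, and 3.73 and 3.68 in ischemic MK25 (interaction 0.89, SE 0.14). The message of the target itself, *MAPKAPK2*, had an interaction of -0.18 (SE 0.08, adjusted p = 0.124), which does not bear on inhibition of the kinase, and *MAPK14*, which encodes p38α, one of 0.25 (SE 0.08, adjusted p = 0.0291). Of 19 interferon-stimulated genes, 4 were positive, led by *IFIT1* (1.81, SE 0.36), and 1 was negative. That is 26.3% called, near the 24.4% of all genes.

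The remaining lists are read against the background of 10.5% positive and 13.9% negative interactions. Counts of positive and negative interactions were 1 and 10 of 24 NRF2 targets, 1 and 3 of 9 aryl hydrocarbon receptor targets, 1 and 4 of 20 p53 targets, and 1 and 4 of 24 lysosome and autophagy genes. The NRF2 counts became 2 and 6 under quantile normalization, and the lysosome and autophagy counts 1 and 9 with GC and length trends removed. They were 1 and 4 of 18 YAP and TEAD targets and 1 and 5 of 22 matrix and protease genes, and in both of these lists the negative median interaction became positive under quantile normalization. The matrix and protease counts were then 2 and 2, and their negative count was 8 with GC and length trends removed. For 16 SRF and actin genes they were 1 and 7, but 2 and 1 under quantile normalization. *HMOX1*, heme oxygenase 1, was opposite, with -0.38 in ischemic and 0.35 in regular culture, as was *CDKN1A*, the p21 cell cycle inhibitor, with -0.26 and 0.27. The protease *MMP1* was opposite too (-1.24 and 0.66), and so was the autophagy gene *WIPI1* (-0.30 and 0.72).

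**Figure D3:**
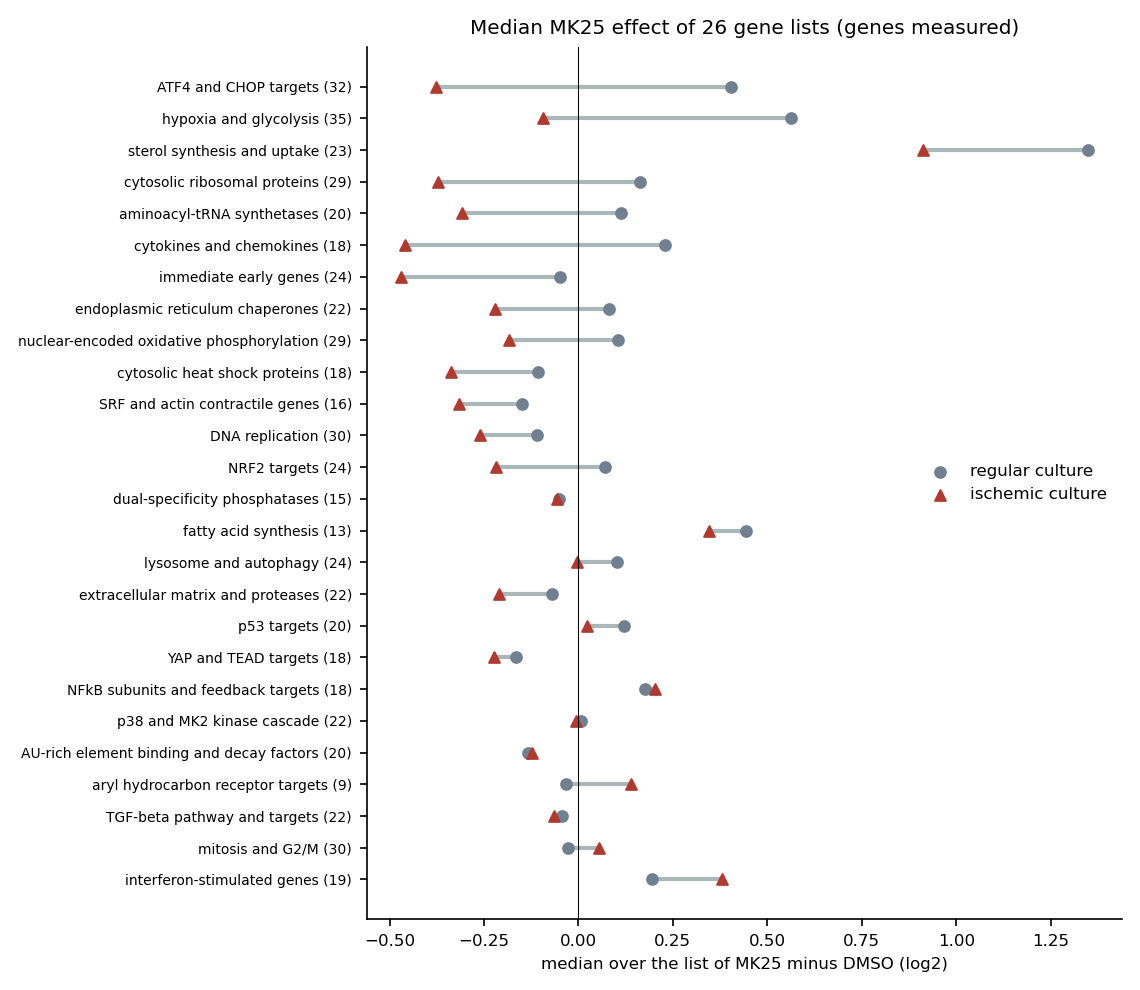
For each of 26 gene lists (number of measured genes in parentheses), the median MK25 effect (log2 difference from DMSO) is shown in regular culture (circles) and in ischemic culture (triangles), ordered by the median interaction. ATF4 and CHOP targets and hypoxia genes head the order, with median interactions of -0.81 and -0.74 and medians of 0.40 and 0.56 in regular against -0.38 and -0.09 in ischemic culture, and sterol genes lie to the right in both.

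The classes were then described in the untreated cells of the first experiment, whose 4 libraries the interaction does not use. Of all 13475 genes in both tables, 35.2% were higher and 35.3% lower in ischemic than in regular culture. Of the 167 opposite genes that fell in ischemic and rose in regular culture, 112 (67.1%) were higher and 25 (15.0%) lower. Of 211 regular-only rises in both tables, 162 (76.8%) were higher in ischemic culture. The reverse pattern was seen in the 73 opposite genes that rose in ischemic and fell in regular culture, of which 41 (56.2%) were lower and 15 (20.5%) higher, and in regular-only falls, of which 57.6% were lower. Ischemic-only rises were lower in 53.3%, and ischemic-only falls higher in 42.3%. *CXCL8* was higher in untreated ischemic cells by 4.40, *ASNS* by 2.91 and *PDK1* by 4.42, and *POU3F2* was lower by 2.25.

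**Figure D4:**
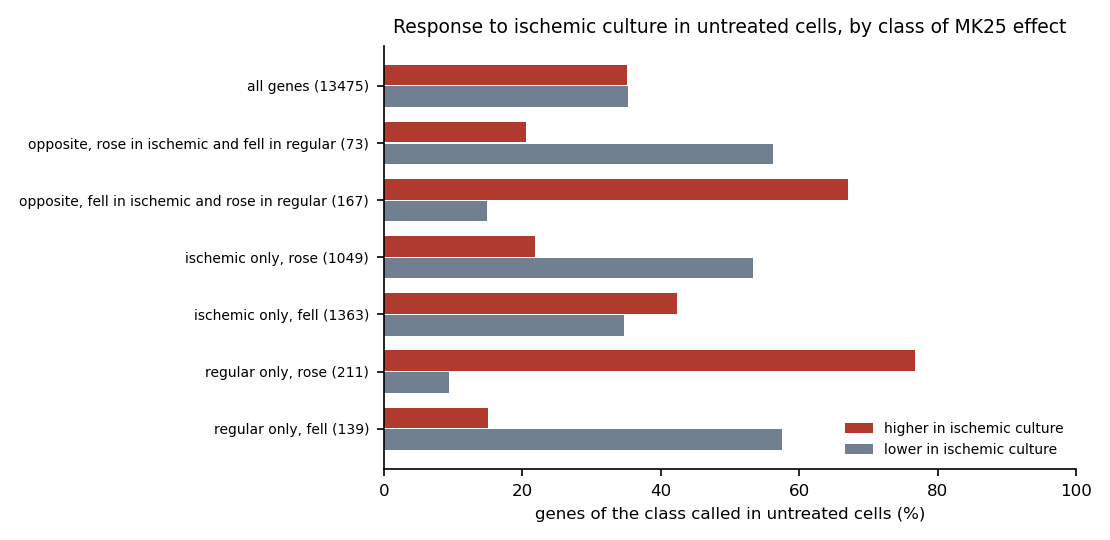
For each class of MK25 effect (number of genes in both tables in parentheses), bars give the percent of genes called higher or lower in ischemic than in regular culture in untreated cells. Genes that rose with MK25 in regular culture, whether regular only or opposite, were higher in untreated ischemic cells in most cases (76.8% and 67.1%, against 35.2% of all genes).

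Transcript composition moved with the sign of the interaction. The median GC content of transcripts was 53.9% and the median length 4873 bases for positive interactions, against 46.1% and 3163 bases for negative ones and 47.7% and 3863 bases for all genes. In the opposite genes that rose in ischemic culture the median GC content was 60.7%. With trends on GC and length removed from each library, 1462 interactions were positive and 2254 negative, 30 of 35 hypoxia genes and 28 of 32 ATF4 and CHOP targets had negative ones, and 171 of the 240 opposite genes remained opposite. The part of composition in the results was not tested further.

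VX745 was fitted with the same DMSO libraries, so its values are given side by side only. The median interaction of VX745 was -0.30 for both the hypoxia genes and the ATF4 and CHOP targets. For hypoxia genes the median VX745 effect was 0.05 in regular and -0.30 in ischemic culture (MK25 0.56 and -0.09). For ATF4 and CHOP targets it was 0.02 in regular and -0.22 in ischemic culture (MK25 0.40 and -0.38). Sterol genes had a median VX745 interaction of -0.10, with -0.02 in regular and -0.09 in ischemic culture. In some other lists the median interactions of VX745 and MK25 lay nearer each other. They were -0.43 against -0.54 for ribosomal proteins and -0.39 against -0.41 for cytokines. Heat shock genes had -0.29 against -0.25, and oxidative phosphorylation genes -0.21 against -0.27. The sign differed for dual-specificity phosphatases (0.11 against -0.18) and YAP and TEAD targets (0.17 against -0.03), among others. *BNIP3* had a VX745 effect of 0.21 in regular culture (MK25 1.90) and *INSIG1* one of -0.08 (MK25 3.56). *CXCL8* fell with VX745 in both cultures, by 1.39 in ischemic and by 0.65 in regular culture, where it rose with MK25. *EGR1* fell with VX745 in ischemic culture, with an effect of -0.55, against -2.37 with MK25.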

How the data were processed

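RNA of LN229 cells was sequenced from libraries made with the SMART-Seq mRNA HT and Nextera XT kits, which do not mark strand. Per the labels and methods, the authors aligned reads with HISAT2 to GRCh38, and they deposited log2 normalized CPM per gene (Entrez identifiers), made in Galaxy with tool versions not given in the sources used here. These log2 values were used as deposited, with no pseudocount or filter. Each includes a small read offset of the authors, which shrinks the differences of genes with few reads.

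Unlogged values lay on steps of whole reads, within 0.05 of a read, for 100% of values, which gave 20122017 to 37562668 reads per library. The floor of detection was taken as 3 reads and covers counting error only, since reads carry no molecular identifiers. Symbols came from RefSeq for 99.3% of 14024 genes.

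Differences came from limma (version 3.58.1, R 4.3.3), as 1 linear model with a mean for each of 6 groups over 12 libraries and an empirical Bayes step with a variance trend. The p-values are two-sided, with Benjamini-Hochberg adjustment across every gene tested and a threshold of 0.05. The test named in the study's methods takes raw counts and was replaced for this unit. The 4 untreated libraries were fitted separately. The fit was tested on simulated data.

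Genes were named by rule, and a few that the rule names are not reported here. These were the 8 largest called interactions in each direction among genes averaging 3 or more on the log2 scale, the 6 opposite genes in each pattern with the largest smaller effect, the 4 largest one-sided rises and falls with an effect within 0.25 in the other culture, the inhibitor targets, and up to 8 called members of each of 26 lists. *DDIT3*, *ATF4*, *TRIB3*, *VEGFA*, *LDHA*, *PGK1*, *IL6*, *IL1A* and the uncalled hypoxia genes were named after their values were seen. The lists and members were chosen with earlier results of these data known. Alternatives were an unadjusted p, an interaction of at least 1.5-fold, filters on low values, centring on the median, quantile normalization, no variance trend, a fit of only the 8 libraries, a replicate block, voom on recovered reads and each library left out, with a crossed block and the removal of GC and length trends added after seeing the data.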

Additional observations from a re-analysis of the deposited data

Results flagged for a closer look

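The effect of MK25 differed between the cultures, by the test of the interaction itself, in 1468 genes with a positive and 1956 genes with a negative difference, and for the following named genes. Positive interactions were 1.53 for *POU3F2*, 1.46 for *EEPD1*, 1.46 for *PRAG1*, 1.40 for *SRGAP3*, 1.31 for *MAP1A*, 1.26 for *CEBPD*, 1.24 for *AHDC1*, 1.22 for *FAM222A*, 1.18 for *FOS*, 1.14 for *NEURL1B*, 1.08 for *ZNF865*, 1.07 for *MYPOP*, 0.96 for *ZNF503*, 0.92 for *H2AX*, 0.84 for *PPAN* and 0.65 for *TRAPPC12*. Negative interactions were -2.83 for *RN7SK*, -2.59 for *CA9*, -2.33 for *PPFIA4*, -2.08 for *BNIP3*, -2.06 for *SLC2A3*, -2.01 for *PDK1*, -1.98 for *EGR1*, -1.86 for *CXCL8*, -1.77 for *SESN2*, -1.74 for *AK4*, -1.44 for *FST*, -1.43 for *CTH*, -1.43 for *ERRFI1*, -1.38 for *DUSP5*, -1.13 for *PTGS2*, -1.08 for *PAPPA2*, -1.06 for *ASNS* and -1.04 for *PCK2*.

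Of these 34 genes, 30 passed the test in the same direction under all 20 alternatives, and the exceptions were *RN7SK*, *CEBPD*, *PPAN* and *TRAPPC12*. The 34 were chosen for large called effects in these same libraries. That choice favors a high count, so the count is not independent evidence. *PAPPA2*, a protease that acts on IGF-binding proteins, was at 1.64 and 1.15 in regular DMSO, 1.94 and 2.12 in regular MK25, 6.09 and 5.96 in ischemic DMSO, and 5.63 and 5.53 in ischemic MK25.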

How the results depend on the processing

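Over 20 alternatives, 102 of 194 named genes kept their call in each one and 192 their direction. The 2 that turned were *AXL* (0.037) and *MCM7* (0.0026), both under quantile normalization. With an unadjusted p under 0.05 the counts were 2300 positive interactions, 684 opposite and 756 regular-only genes, and 2045 rises and 1830 falls in regular culture. With an interaction of at least 1.5-fold they were 618 positive and 495 negative interactions, 157 opposite, 717 ischemic-only and 113 regular-only genes. Without a variance trend, 598 genes rose and 281 fell in regular culture, with 104 opposite and 203 regular-only genes. With GC and length trends removed, 1145 genes fell in regular culture. Leaving out each library gave 1047 to 1566 positive and 1408 to 2133 negative interactions, 91 to 384 opposite, 1675 to 2401 ischemic-only and 164 to 496 regular-only genes, 1965 to 2912 rises and 2197 to 3212 falls in ischemic culture, and 520 to 1102 rises and 303 to 769 falls in regular culture, the lower ends of the regular rises and opposite genes coming without regular DMSO replicate 2. Opposite genes were 153 without ischemic DMSO replicate 1, 117 without regular MK25 replicate 1 and 384 without regular DMSO replicate 1. The remaining lone library is then assumed to vary like the other groups, and the cause of these shifts was not tested.

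Whether replicate numbers mark pairs across groups could not be told. Correlations of the difference between replicates 1 and 2 ran from -0.27 (ischemic DMSO with ischemic MK25) to 0.32 (ischemic MK25 with regular MK25). With a replicate block, 1455 interactions were positive and 1958 negative. A crossed block, with the numbers of ischemic DMSO swapped and added after seeing the data, gave 1577 and 2044. The removal of GC and length trends was added likewise. Filters on low values, centring on the median, quantile normalization, voom on recovered reads and a fit of only the 8 libraries kept each of these counts over all genes within 1.5 times of its reported value. Counts within single lists moved more in places.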
